A study of Mus musculus with 4 samples.

Results

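The 26S proteasome genes of mouse bone-marrow-derived macrophages were followed across 4 arrays of cells given lipopolysaccharide (LPS) with or without inhibitors of cell death. The members were the genes whose single annotated symbol starts with Psm, then a letter from a to g, then a digit, each read from its probe with the highest mean of the 4 arrays. This rule, which used no difference between conditions, took 50 of the 19938 genes with a single symbol. Of these, 48 encode subunits, activators, inhibitors or assembly chaperones of the proteasome. The other 2, Psmc3ip and Psme3ip1, meet the pattern through their names: the first encodes a factor of meiotic recombination and the second a binding partner of the activator PA28 gamma.

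The macrophages were grown from marrow of female BalbC mice with L929 conditioned medium, which supplies the growth factor M-CSF. The 4 conditions were LPS/zVAD/Nec-1, LPS/zVAD, LPS and Control. LPS, a ligand of the receptor TLR4, was given at 10 ng/ml, zVAD, an inhibitor of caspases, at 50 µM, and Nec-1 (necrostatin-1), which blocks the kinase RIPK1, at 30 µM. The series was set up to find inflammatory changes that depend on RIPK1. With 1 array for each condition, replicate error is unknown, no test was possible, and the small number of arrays limits precision throughout. No array held zVAD or Nec-1 alone, so an effect of an inhibitor by itself cannot be told apart from its effect on LPS-treated cells, and the sources used here give neither treatment times nor the number of mice behind an array. Signals are on a log2 scale, a log2 ratio is the difference of 2 arrays, and a gene was counted as higher or lower at 2-fold or more, with 1.5-fold as a second rule of size. The filter level, log2 6.47, was the median of all values. A gene was counted as tested if its highest signal reached that level, which 12203 genes and 48 of the members did. Counts and medians over the members take all 50, while those over all genes take only the genes tested.

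The proteasome degrades proteins that carry ubiquitin chains. Its 20S core is a barrel of outer alpha and inner beta rings, in which Psmb5, Psmb6 and Psmb7 encode the standard catalytic subunits, and its 19S cap binds the substrate, removes ubiquitin and unfolds the chain. In cells exposed to interferons, newly built cores take up the inducible subunits encoded by Psmb8, Psmb9 and Psmb10 in place of Psmb5, Psmb6 and Psmb7, giving the immunoproteasome, whose products are well suited to MHC class I molecules. The ring activator PA28, encoded by Psme1 and Psme2, is induced with them.

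The promoters of the 3 inducible catalytic genes, of Psme1 and of the standard genes Psmb5 and Psmb6 are shown because the LPS values below separate the inducible from the standard subunits. Each window runs from 250 bases before to 50 after the annotated start, is written 5′ to 3′ on the gene's strand and comes from RefSeq on GRCm38.p6. Capitals mark letters that match 1 of 4 searched motifs. The windows of Psmb10 (chr8:105938343-105938642, minus strand), Psmb9 (chr17:34187281-34187580, minus), Psmb8 (chr17:34197945-34198244, plus), Psme1 (chr14:55578244-55578543, plus), Psmb5 (chr14:54617946-54618245, minus) and Psmb6 (chr11:70525107-70525406, plus) read as follows.
Psmb10: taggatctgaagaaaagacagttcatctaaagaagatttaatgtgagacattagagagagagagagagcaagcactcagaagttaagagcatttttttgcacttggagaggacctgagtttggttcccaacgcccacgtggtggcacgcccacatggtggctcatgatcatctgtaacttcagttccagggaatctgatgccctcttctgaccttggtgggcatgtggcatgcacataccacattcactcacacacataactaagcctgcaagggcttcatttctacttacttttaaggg
Psmb9: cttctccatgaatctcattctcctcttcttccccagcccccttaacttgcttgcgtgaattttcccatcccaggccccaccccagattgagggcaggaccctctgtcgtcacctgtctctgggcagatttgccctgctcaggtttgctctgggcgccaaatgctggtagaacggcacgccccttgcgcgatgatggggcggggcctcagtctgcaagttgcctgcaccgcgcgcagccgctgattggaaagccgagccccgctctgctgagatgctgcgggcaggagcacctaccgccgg
Psmb8: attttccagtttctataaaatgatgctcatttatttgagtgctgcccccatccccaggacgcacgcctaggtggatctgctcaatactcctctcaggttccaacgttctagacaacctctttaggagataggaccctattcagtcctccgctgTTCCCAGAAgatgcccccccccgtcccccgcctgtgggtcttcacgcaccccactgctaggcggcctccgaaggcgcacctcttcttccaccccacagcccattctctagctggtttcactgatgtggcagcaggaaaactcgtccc
Psme1: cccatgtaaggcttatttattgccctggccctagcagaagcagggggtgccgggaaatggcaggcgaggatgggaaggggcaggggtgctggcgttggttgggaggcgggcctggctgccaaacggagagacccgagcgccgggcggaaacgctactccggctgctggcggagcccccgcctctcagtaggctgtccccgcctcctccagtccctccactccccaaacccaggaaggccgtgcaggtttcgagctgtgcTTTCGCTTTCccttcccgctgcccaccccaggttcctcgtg
Psmb5: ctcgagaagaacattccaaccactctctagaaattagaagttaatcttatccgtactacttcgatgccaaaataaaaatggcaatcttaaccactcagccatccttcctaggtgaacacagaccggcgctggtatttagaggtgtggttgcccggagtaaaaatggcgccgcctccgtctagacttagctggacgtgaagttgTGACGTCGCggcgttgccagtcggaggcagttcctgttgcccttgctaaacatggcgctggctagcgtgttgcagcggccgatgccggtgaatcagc
Psmb6: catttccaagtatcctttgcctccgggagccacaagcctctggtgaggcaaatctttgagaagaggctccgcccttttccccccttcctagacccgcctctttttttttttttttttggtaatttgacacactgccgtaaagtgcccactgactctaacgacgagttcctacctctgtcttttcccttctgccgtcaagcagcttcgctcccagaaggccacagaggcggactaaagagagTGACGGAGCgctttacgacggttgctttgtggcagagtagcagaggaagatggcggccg

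The motifs were searched on both strands of the windows of 42 members (46 windows, since some genes have several) and of all 32851 windows of the table. They were GAAA followed, after 2 bases of any kind, by GAAA, a core of elements bound by interferon regulatory factors, TTCNNNGAA, the core bound by STAT dimers, GGGA followed, after 2 bases of any kind, by TTCC, a form of the NF-kB element, and TGACNNNGC, the antioxidant response core that the NRF factors bind. Psme1 held the first as TTTCGCTTTC, read on the minus strand, starting at base 10 counted from the start. Psmb8 held the second as TTCCCAGAA, 97 bases before the start. Psmb5 and Psmb6 held the last as TGACGTCGC and TGACGGAGC, 47 and 9 bases before the start. Windows of Psmc6, Psmd12, Psmd9 and Psme4 held it too, so it was not limited to catalytic genes. Psmb7, the other standard catalytic gene, was not among its holders. Psmb7 and Psme2 are not shown, and 8 members had no window. The windows of Psmb10 and Psmb9 held none of the 4 motifs, which says only that these letters are not in these windows. Among member windows, 10.9%, 6.52%, 2.17% and 13.0% held the motifs in the order given, against 3.44%, 8.3%, 1.47% and 12.4% of all windows. The first of these shares rests on 5 windows, those of Psmb3, Psmd4, Psmd9, Psme1 and Psmg4, and the third on that of Psme4 alone. The printed windows of Psme1, Psmb8, Psmb5 and Psmb6 held 1 match each, so no marked matches overlapped. Psmb9 lies beside Tap1, the gene of a peptide transporter subunit, on chromosome 17, and 275 bases of their windows are the same DNA read on opposite strands. Psmb8 lies between Tap1 and Tap2 on the same chromosome, with no other protein-coding gene between it and either.

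The 4 arrays had median log2 signals between 6.41 and 6.52 over 35556 probes. Of 9 measured macrophage markers, 8 were at or above the filter level on every array, and Cd163 on none. The summed signal of this list lay at log2 15.82 to 16.10. Of 9 neutrophil markers, 8 were at or above the filter level on every array, with sums of log2 11.95, 11.95, 12.26 and 11.73 (LPS/zVAD/Nec-1, LPS/zVAD, LPS, Control), and Cxcr2 was under it on all. Of the other lists, summed to between log2 7.48 and 10.98, the erythroid, T and NK, and B cell lists had at most 2 members at or above the filter level on an array, the dendritic cell list 2 to 3 of 7 and the stromal and endothelial list 4 to 6 of 6.

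The LPS array was set against the Control array to read the response to LPS alone. The 3 inducible catalytic genes had the highest LPS ratios among the 50 members. Psmb10 stood at log2 12.23 with LPS/zVAD/Nec-1, 11.91 with LPS/zVAD, 12.26 with LPS and 10.23 in Control, and was 4.09-fold higher with LPS than in Control. Psmb9 stood at 12.08, 11.51, 12.04 and 10.41 in the same order, with an LPS ratio of 3.11-fold. Psmb8 stood at 11.81, 11.61, 11.85 and 10.58, with a ratio of 2.41-fold. All 3 genes were lowest in Control, and the 3 arrays with LPS lay within 0.57 log2 units of each other for each gene. As this was bulk RNA, a change in the number of expressing cells and a change in RNA per cell cannot be told apart, here or below.

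The standard counterparts had smaller LPS ratios. Psmb5, whose product cleaves after hydrophobic residues, stood at log2 12.94 with LPS/zVAD/Nec-1, 12.46 with LPS/zVAD, 12.87 with LPS and 13.06 in Control. Psmb6, whose product cleaves after acidic residues, stood at 12.31, 12.45, 12.48 and 12.00 in that order. Psmb7, whose product cleaves after basic residues, stood at 11.32, 11.29, 11.47 and 11.23. Their LPS ratios were -0.18, 0.48 and 0.24, all under 1.5-fold. The LPS ratio of the inducible gene exceeded that of its counterpart by 1.45 for Psmb8 over Psmb5, 1.16 for Psmb9 over Psmb6 and 1.79 for Psmb10 over Psmb7, as differences of log2 ratios.

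**Figure D1:**
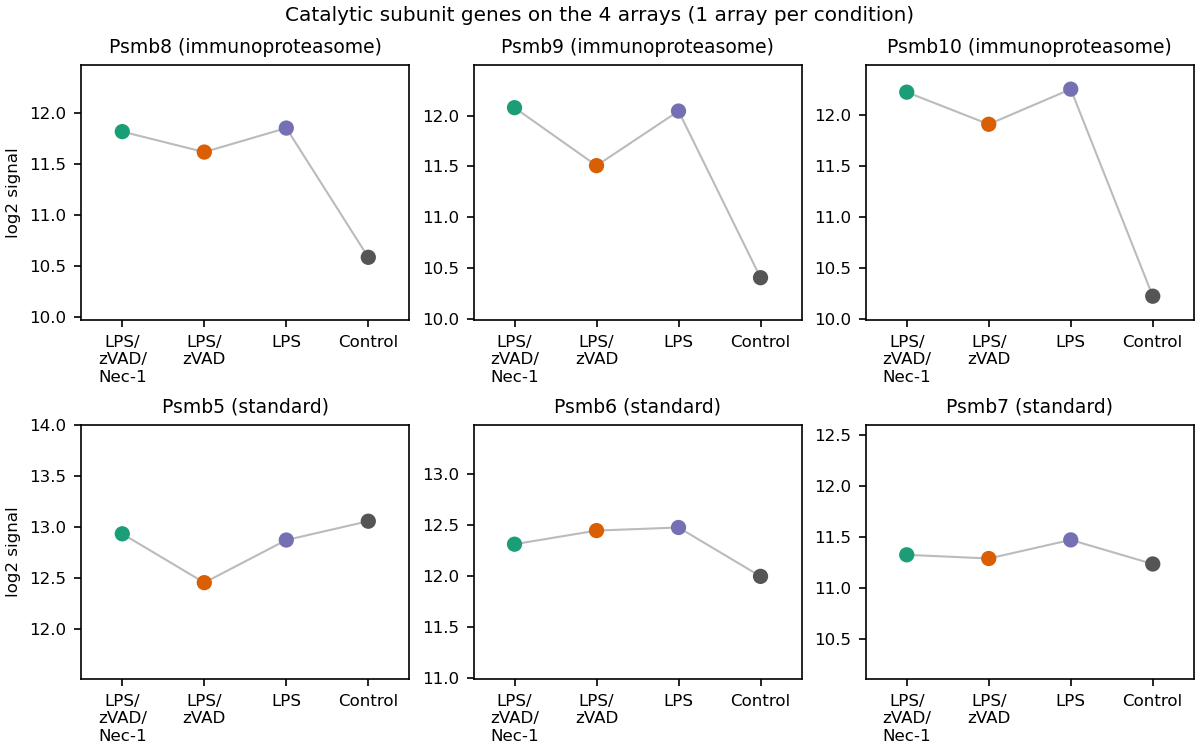
Log2 signal (vertical axis, 2.5 units in every panel, each around its own level) of the inducible catalytic genes (top) and their standard counterparts (bottom) on the 4 arrays (horizontal axis), with 1 point per array and no error, since each condition had 1 array. Psmb8, Psmb9 and Psmb10 lie 1.27, 1.63 and 2.03 units higher with LPS than in Control, while Psmb5, Psmb6 and Psmb7 stay within 0.60 units of themselves over the 4 arrays. The grey lines join the arrays for the eye and stand for no order.

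The PA28 activator genes also lay higher with LPS than in Control. Psme1, the alpha subunit of PA28, stood at log2 12.07 with LPS/zVAD/Nec-1, 11.84 with LPS/zVAD, 12.05 with LPS and 11.21 in Control, and was 1.78-fold higher with LPS than in Control. Psme2, the beta subunit, stood at 13.46, 13.26, 13.51 and 12.64, with a ratio of 1.83-fold. A second probe annotated to both Psme2 and its near-identical copy Psme2b gave a log2 ratio of 1.47 in place of 0.87, so the size for Psme2 is uncertain. Psme3, which encodes PA28 gamma, the nuclear member of the family, went the other way at -0.38 (log2 11.01 with LPS and 11.39 in Control). Psme4, the gene of the activator PA200, stood at log2 10.83 with LPS/zVAD/Nec-1, at 10.60 with LPS/zVAD and at 10.24 in Control, and was 1.70-fold higher with LPS than in Control. Psmf1, the gene of the proteasome inhibitor PI31, had a ratio of 0.12.

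Among the alpha ring genes, Psma6 and Psma5 had the highest LPS ratios. Psma6 stood at log2 12.71 with LPS/zVAD/Nec-1, 12.01 with LPS/zVAD, 13.12 with LPS and 12.11 in Control. Its LPS ratio of 2.01-fold lay just past the threshold, and under it (log2 0.91) after quantile normalization. Psma5 stood at 11.06, 10.71, 11.28 and 10.39, a ratio of 0.90, and a second probe of the gene gave 1.20. Psma2, Psma3 and Psma4 lay between 0.41 and 0.56, and Psma1 and Psma7 at -0.08 and -0.12. The structural beta genes Psmb1 to Psmb4 lay between -0.11 and 0.24. Psma8 and Psmb11, which encode the testis and thymus forms of an alpha and a beta subunit, were under the filter level on all 4 arrays, at log2 5.25 to 5.46 and 5.38 to 5.62, and were not separated from background.

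Genes of the 19S cap had LPS ratios near 0 for the most part. The 6 ATPase genes of the base, Psmc1 to Psmc6, whose products unfold the substrate, lay between -0.05 and 0.31. In the base, Psmd4, a ubiquitin receptor, lay at 0.50, while the scaffold genes Psmd1 and Psmd2 lay at -0.15 and -0.07. In the lid, Psmd11 stood at log2 10.56 with LPS/zVAD/Nec-1, 10.88 with LPS/zVAD, 10.83 with LPS and 10.08 in Control, an LPS ratio of 1.68-fold. Psmd8, another lid subunit, stood at 12.59, 13.16, 12.62 and 12.00, an LPS ratio of 1.54-fold. The other 6 lid genes, among them Psmd14, the deubiquitinase of the cap, lay between -0.06 and 0.29.

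Among assembly chaperones, a chaperone gene of the cap lay higher with LPS than in Control and those of the core lower. Psmd10, which encodes gankyrin, a chaperone of the 19S base, stood at log2 11.81 with LPS/zVAD/Nec-1, 11.66 with LPS/zVAD, 12.12 with LPS and 10.89 in Control, and was 2.35-fold higher with LPS than in Control. The other cap chaperones, Psmd5 and Psmd9, lay at 0.28 and -0.18. Psmg2 and Psmg1, whose products pair to start assembly of the alpha ring, were 1.87-fold and 1.76-fold lower with LPS than in Control. Psmg2 stood at log2 8.53 with LPS/zVAD/Nec-1, 8.37 with LPS/zVAD, 8.68 with LPS and 9.58 in Control. Psmg1 stood at 8.71, 8.32, 8.75 and 9.57, and Control was the highest array for both. Psmg3 and Psmg4, the second chaperone pair, lay at -0.40 and -0.42. The 4 core chaperone genes had a median of -0.62, and each lay below 0 in all 3 further scalings, from -0.92 (Psmg2, quantile normalization) to -0.26 (Psmg3, cyclic loess). Next to them the lowest LPS ratios were -0.56 for Psmc3ip and -0.38 for Psme3.

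Over all 50 members, 5 were at least 2-fold higher with LPS (10.0%, against 8.24% of all genes tested) and 0 lower (against 7.2%). The share higher was close to that of all genes. At 1.5-fold, 11 were higher (22.0%, against 14.4%) and 2 lower (4.0%, against 17.3%). The median LPS ratio was 0.20 over the members and -0.12 over all genes tested, and 34 of the 50 (68.0%) had a ratio above 0, against 39.9% of all genes, while 16 (32.0%) had a ratio below 0, against 60.1%. With the arrays centred, the median was 0.31 over the members and -0.01 over all genes, a shift of all genes that exceeds 0.1. After quantile normalization the medians were 0.087 and -0.08, and after cyclic loess 0.26 and -0.01. Of the marker lists, 8 of 9 neutrophil (median 0.31), 5 of 7 dendritic, 5 of 9 macrophage, 2 of 4 B cell, 2 of 6 stromal and endothelial, 1 of 6 T and NK and 0 of 3 erythroid genes lay above 0. At least 2-fold higher with LPS were 2 neutrophil genes, 1 macrophage gene, the dendritic marker Ccr7 (14.7-fold) and the endothelial markers Pecam1 (3.42-fold) and Cdh5 (2.03-fold). The part of these markers in the ratios was not tested.

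**Figure D2:**
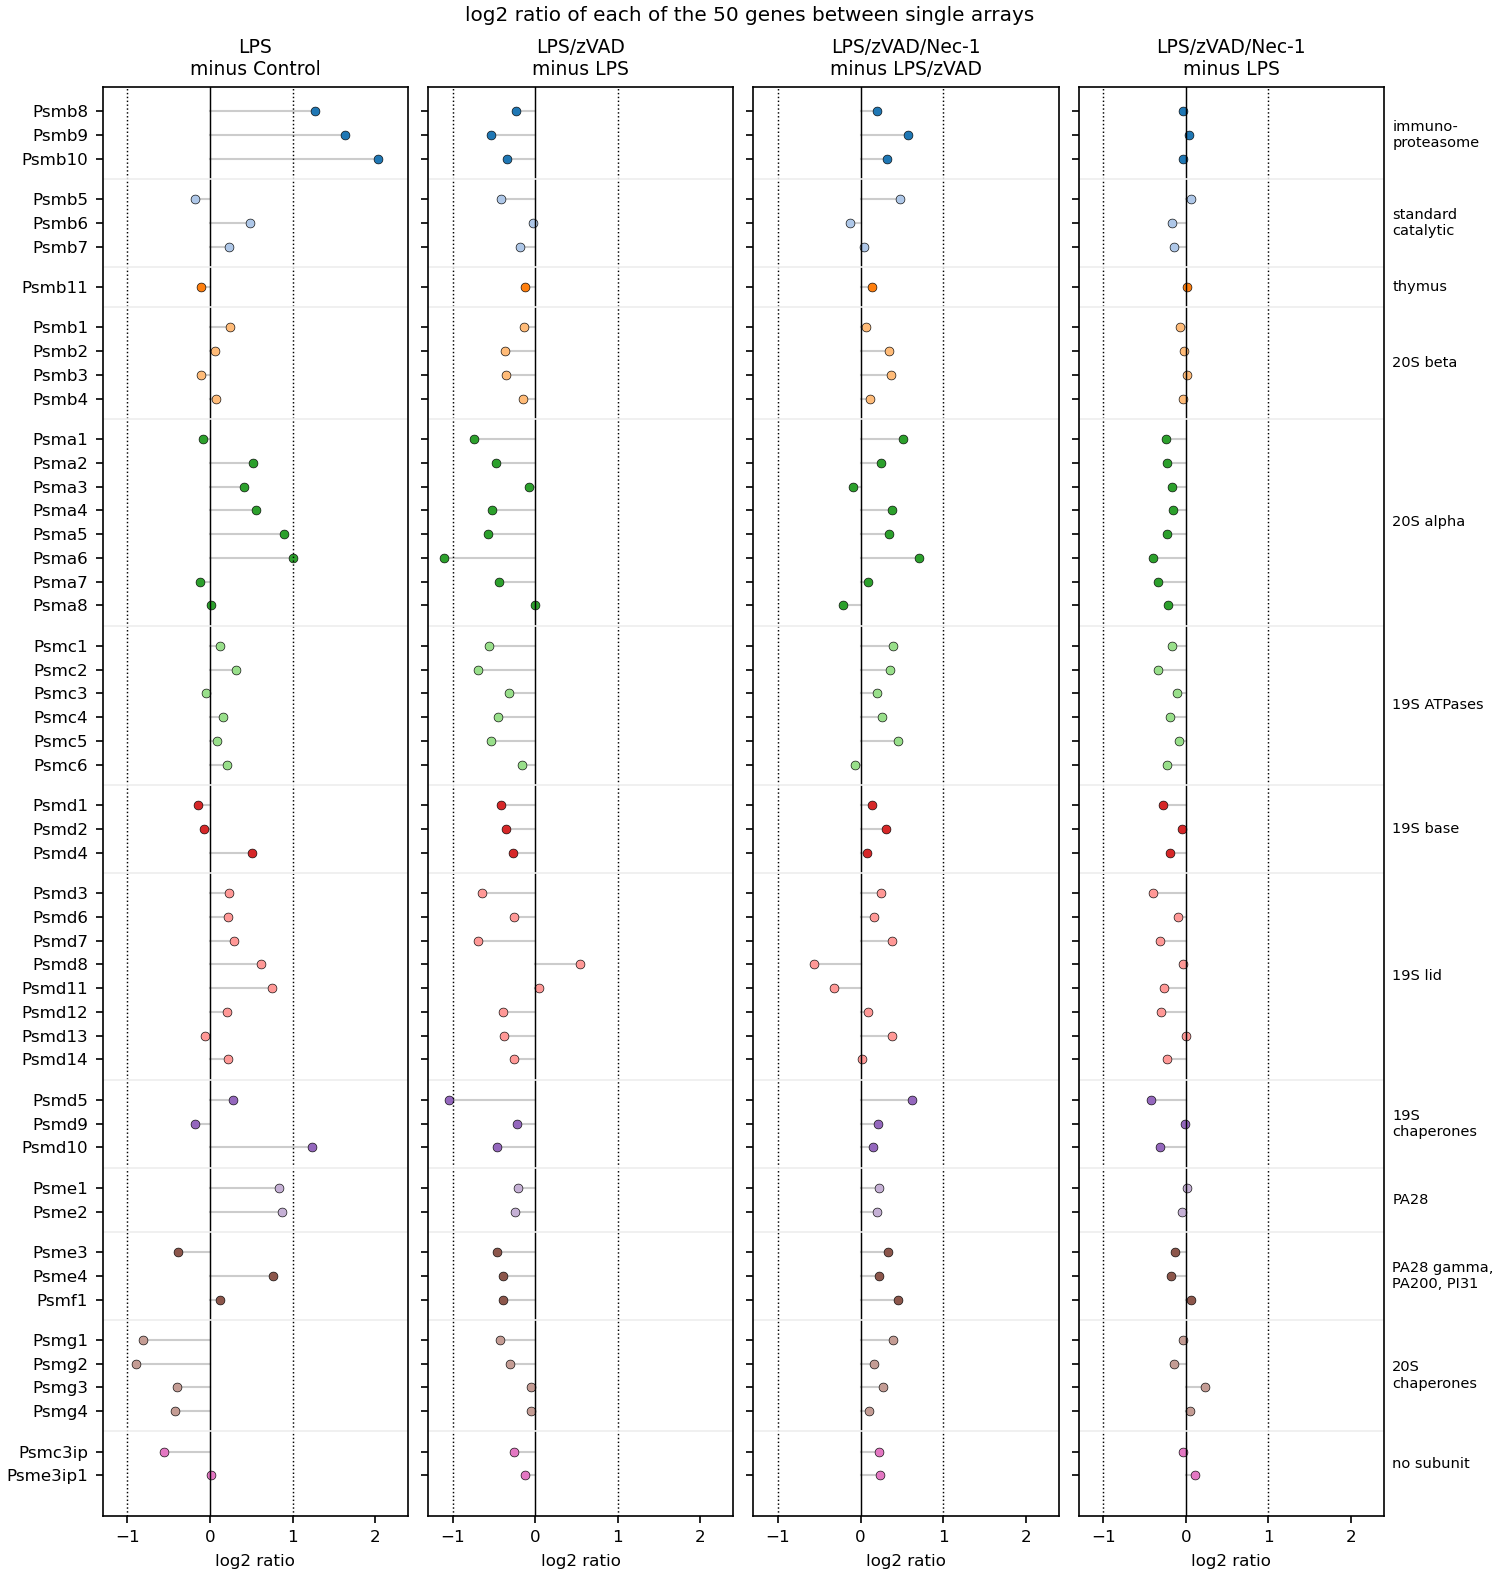
Log2 ratio (horizontal axis) of each of the 50 genes (rows, grouped by role at the right, 1 colour per group) in 4 comparisons of single arrays, with 0 as a solid line and 2-fold as dotted lines. In the first panel Psmb8, Psmb9, Psmb10, Psma6 and Psmd10 pass 2-fold, in the second 48 of 50 points lie left of 0 and Psmd8 stands apart at 0.54, and in the other panels no point passes 2-fold. Single arrays give no error bars.

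The second comparison took LPS/zVAD against LPS alone. With the caspase inhibitor added, nearly every proteasome gene lay slightly lower than with LPS alone. The log2 ratio was below 0 for 48 of the 50 members (96.0%, against 55.1% of all genes tested), with a median of -0.36 over the members and -0.05 over all genes. Psma8 and Psmb11, both under the filter level, are among the 48, and their signs are not readable. Few of these differences were large: 0 members were at least 2-fold higher (against 3.25% of all genes) and 2 were lower (4.0%, against 3.59%). At 1.5-fold 0 were higher (against 7.96%) and 6 lower (12.0%, against 13.2%). The shares past either threshold in the lower direction were thus close to those of all genes. What differed was the share of smaller ratios below 0 and the lack of members at least 1.5-fold higher. Of the members, 23 (46.0%) lay under the lower quartile of all genes tested, -0.36. The LPS array enters this comparison and the first one, on opposite sides. After cyclic loess, which removes trends with signal level, the medians were -0.27 for the members and 0.00 for all genes, and 45 of 50 members were below 0.

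Psma6, an alpha ring gene, had the lowest ratio, 2.15-fold lower with LPS/zVAD than with LPS (log2 12.01 and 13.12), which left it close to its Control signal of 12.11. Psmd5, a chaperone of the cap that holds back cap and core joining in human cells, stood at log2 10.37 with LPS/zVAD/Nec-1, 9.74 with LPS/zVAD, 10.79 with LPS and 10.51 in Control. It was 2.06-fold lower with LPS/zVAD than with LPS, a ratio of -1.05 that became -0.96 after quantile normalization and -0.91 after cyclic loess. The LPS/zVAD array was the lowest of the 4 for both genes.

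The next lowest were Psma1, Psmc2, Psmd7 and Psmd3, from the alpha ring, the ATPase ring and the lid. Psma1 stood at log2 11.74 with LPS/zVAD/Nec-1, 11.24 with LPS/zVAD, 11.98 with LPS and 12.06 in Control, a ratio of 1.68-fold lower with LPS/zVAD than with LPS. Psmc2 stood at 10.00, 9.65, 10.34 and 10.03, a ratio of 1.62-fold lower. Psmd7 stood at 10.66, 10.28, 10.97 and 10.67, and Psmd3 at 9.80, 9.56, 10.20 and 9.97, ratios of -0.69 and -0.64. In each of these 4 genes the LPS/zVAD array was the lowest of the 4.

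By role, the alpha ring and the ATPases of the cap had the lowest medians, -0.50 over 8 genes and -0.50 over 6. The 8 include Psma8, which is under the filter level. The inducible catalytic genes had a median of -0.34, with Psmb9 at -0.54, Psmb10 at -0.34 and Psmb8 at -0.24, and the LPS/zVAD signal of each stayed above its Control signal. Their standard counterparts had a median of -0.18, with Psmb5 at -0.42, Psmb7 at -0.18 and Psmb6 at -0.03, the last turning to 0.02 after quantile normalization and 0.01 after cyclic loess. Psme1 and Psme2 lay at -0.21 and -0.25, and the probe annotated to both Psme2 and Psme2b at -0.05. Psme3, Psme4 and Psmf1 lay between -0.46 and -0.39. The core chaperones Psmg1 to Psmg4 lay between -0.43 and -0.05, with Psmg4 at 0.06 after quantile normalization and 0.11 after cyclic loess.

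Psmd8 and Psmd11, both lid genes, were the 2 members above 0. Psmd8 was 1.45-fold higher with LPS/zVAD than with LPS, and its LPS/zVAD signal of log2 13.16 was the highest of the 4 arrays. Psmd11 lay close to LPS alone, at 0.05. The remaining 6 lid genes lay between -0.69 (Psmd7) and -0.25 (Psmd14). Of the marker lists, 8 of 9 neutrophil (median -0.22), 7 of 9 macrophage (median -0.20), 3 of 4 B cell, 3 of 6 stromal and endothelial, 2 of 7 dendritic, 1 of 6 T and NK and 1 of 3 erythroid genes lay below 0. The endothelial marker Pecam1 lay at -1.14, past 2-fold and lower than any proteasome gene, and Cdh5 at -0.81. The part of these markers in the ratios was not tested.

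**Figure D3:**
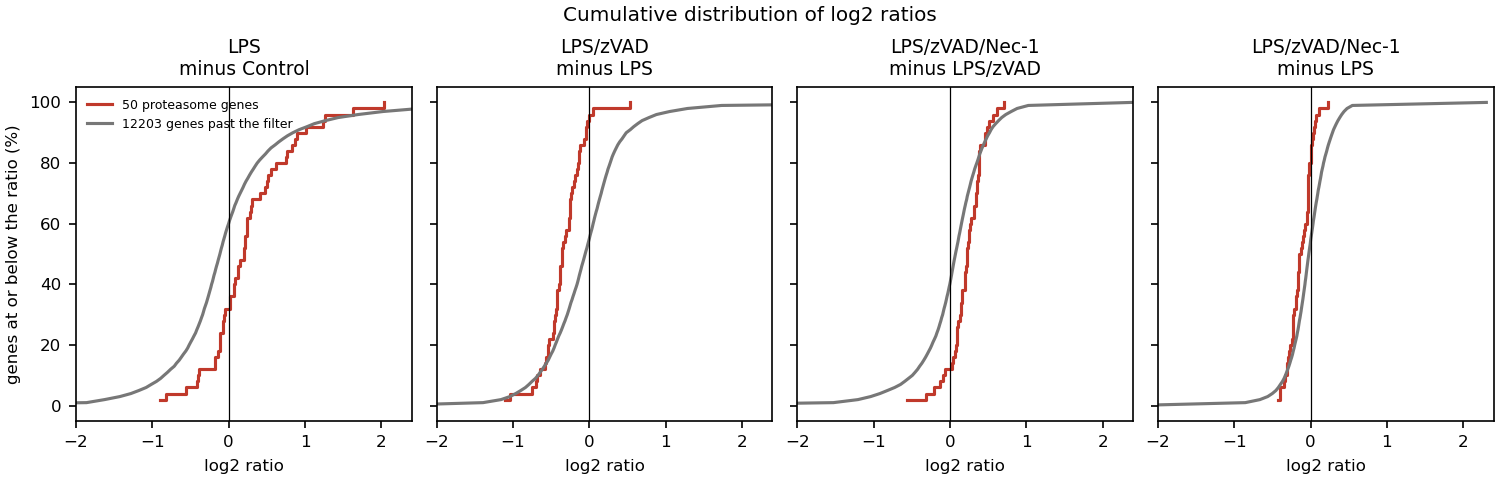
Cumulative share of genes in percent (vertical axis) at or below a given log2 ratio (horizontal axis) in the 4 comparisons, for the 50 proteasome genes (red steps) and for the 12203 genes past the filter (grey, drawn at whole percentiles). The red curve lies right of the grey one for most of its length in the first panel (medians 0.20 and -0.12), left of it in the second (-0.36 and -0.05), right in the third (0.22 and 0.07) and left in the last (-0.14 and -0.02).

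The LPS/zVAD/Nec-1 array was set against the LPS/zVAD array. With the RIPK1 inhibitor added, most members lay slightly higher than with LPS/zVAD. The ratio was above 0 for 44 of the 50 (88.0%, against 59.8% of all genes tested), and below 0 for 6 (12.0%, against 40.2%), with medians of 0.22 over the members and 0.07 over all genes. At 2-fold 0 members were higher (against 1.14%) and 0 lower (against 3.32%). At 1.5-fold 2 were higher (4.0%, against 7.31%) and 0 lower (against 8.19%). This comparison shares the LPS/zVAD array with the preceding one, so an error of that array would move both in opposite directions, and the 2 sets of ratios are not independent.

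The 2 members past 1.5-fold were Psma6, 1.63-fold higher with LPS/zVAD/Nec-1 than with LPS/zVAD (log2 12.71 and 12.01), and Psmd5, 1.54-fold higher (10.37 and 9.74). Psmb9 followed at 1.48-fold (12.08 and 11.51), then Psma1 at 1.42-fold and Psmb5 at 1.39-fold. Psmb10 and Psmb8 lay at 0.31 and 0.20, and Psme1 and Psme2 at 0.22 and 0.20. The probe annotated to both Psme2 and Psme2b gave -0.07, so the sign for Psme2 is uncertain here. The 6 members below 0 were Psmd8 at -0.57, Psmd11 at -0.32, Psma8 at -0.21, Psmb6 at -0.13, Psma3 at -0.09 and Psmc6 at -0.07. Psma8 is under the filter level, so its sign is not readable. Psmd8, the member with the highest ratio of LPS/zVAD over LPS, stood at log2 12.59 with Nec-1 and 12.62 with LPS. Of the marker lists, 6 of 6 stromal and endothelial (median 0.11, Pecam1 0.84, Cdh5 0.54), 5 of 6 T and NK, 3 of 3 erythroid, 5 of 9 macrophage (median 0.02), 4 of 7 dendritic, 2 of 4 B cell and 3 of 9 neutrophil genes (median -0.21) lay above 0. Their part in these ratios was not tested.

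Finally, the LPS/zVAD/Nec-1 array was set against the LPS array. With both inhibitors present the members lay close to LPS alone, and none reached 1.5-fold in either direction (against 0.738% of all genes tested higher and 2.75% lower; at 2-fold, 0.0738% and 0.541%). The ratios ran from -0.42 (Psmd5) to 0.23 (Psmg3). Of the 50, 40 lay below 0 (80.0%, against 54.4% of all genes), with medians of -0.14 and -0.02. Of the marker lists, 8 of 9 neutrophil (median -0.34), 7 of 9 macrophage (median -0.08), 4 of 4 B cell, 3 of 6 stromal and endothelial, 2 of 7 dendritic, 1 of 6 T and NK and 0 of 3 erythroid genes lay below 0, and their part in these ratios was not tested. The sign of such small ratios depended on the scaling, with 48 members below 0 after centring, 32 after quantile normalization and 33 after cyclic loess. The inducible catalytic genes lay close to 0, at 0.03 for Psmb9, -0.03 for Psmb10 and -0.03 for Psmb8. Psmb9 turned to -0.04 after centring, and Psmb10 and Psmb8 turned to 0.04 or less above 0 after quantile normalization and cyclic loess. Of the alpha ring, all 7 genes past the filter were lower, from -0.40 (Psma6) to -0.15 (Psma4), and the ATPases for 6 of 6, from -0.34 (Psmc2) to -0.08 (Psmc5, which turned to 0.02 after quantile normalization).

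The other genes of the pathway were read from lists of genes outside the Psm symbols. The list of genes that supply peptides to MHC class I molecules or load them had 15 measured genes, and H2-K1, H2-D1 and Lnpep were not measured. Of the 15, 6 were at least 2-fold higher with LPS than in Control (8.24% of all genes tested) and 0 lower (7.2%). The list median was 0.41. Nlrc5, which encodes the transactivator of MHC class I genes, was 9.28-fold higher (log2 11.72 and 8.51). Tap1 and Tap2, both subunits of the peptide transporter and neighbours of Psmb9 and Psmb8, were 6.31-fold and 4.31-fold higher. Tapbpl and Tapbp, which encode peptide editors of class I molecules, were 3.78-fold and 2.77-fold higher, and Npepps, a cytosolic aminopeptidase, 2.07-fold. Thop1, a peptidase that destroys such peptides, Erap1, the trimming enzyme of the endoplasmic reticulum, B2m and Lap3 lay at -0.78, 0.71, 0.41 and 0.39.

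With zVAD, 0 of these 15 genes passed 2-fold against LPS alone in either direction (3.25% of all genes tested higher, 3.59% lower). Of the 15, 13 lay below 0 (median -0.19), as did 55.1% of all genes tested. Tap1, whose promoter window overlaps that of Psmb9, stood at log2 12.36 with LPS/zVAD and 12.33 with LPS, while Psmb9 stood at 11.51 and 12.04. With Nec-1, 12 of the 15 lay above 0 against LPS/zVAD (median 0.21), as did 59.8% of all genes tested. Blmh, a cytosolic peptidase, lay at 0.90 after -0.84 with zVAD.

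The list around NRF1, the factor that raises proteasome gene transcription when proteasome activity is short, had 6 measured genes. With zVAD all 6 lay below 0 against LPS alone (55.1% of all genes tested), with a median of -0.42, against -0.05 over all genes. With Nec-1 all 6 lay above 0 against LPS/zVAD (59.8% of all genes), with a median of 0.26, against 0.07. In both comparisons 0 passed 2-fold (of all genes tested, 3.25% higher and 3.59% lower with zVAD, 1.14% and 3.32% with Nec-1). Both share the LPS/zVAD array, so an error of that array would move them in opposite directions. Nfe2l1, the gene of NRF1, stood at log2 11.17 with LPS/zVAD/Nec-1, 10.71 with LPS/zVAD, 11.29 with LPS and 10.45 in Control. Vcp, the segregase that draws NRF1 from the endoplasmic reticulum, stood at 11.22, 10.95, 11.51 and 11.39. Ngly1, the glycanase that edits NRF1, stood at 8.64, 8.53, 9.08 and 8.54.

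Among 12 measured cofactors of the proteasome, 8 lay above 0 and 4 below with LPS/zVAD against LPS (median 0.15), and 2 were at least 2-fold higher. Of all genes tested, 44.8% lay above 0 and 3.25% were at least 2-fold higher. Zfand2a, an arsenite-inducible protein that binds the cap, stood at log2 12.29 with LPS/zVAD/Nec-1, 13.46 with LPS/zVAD, 12.26 with LPS and 12.78 in Control, 2.30-fold higher with LPS/zVAD than with LPS. Zfand5, which stimulates the proteasome, stood at 11.27, 12.22, 11.09 and 10.24, 2.20-fold higher. With Nec-1, Zfand2a had a ratio of -1.17 and Zfand5 of -0.95 against LPS/zVAD. Against LPS alone, Pomp, the maturation factor of the core, lay at -0.27 with zVAD, Ecpas, which binds proteasomes under stress, at 0.46, Akirin2, an import factor for proteasomes in human cells, at 0.50, and Ube3c, a ubiquitin ligase bound to the cap, at -0.82. Against Control, Ipo9, which imports proteasomes with Akirin2 in human cells, was lower with LPS at -1.05.

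**Figure D4:**
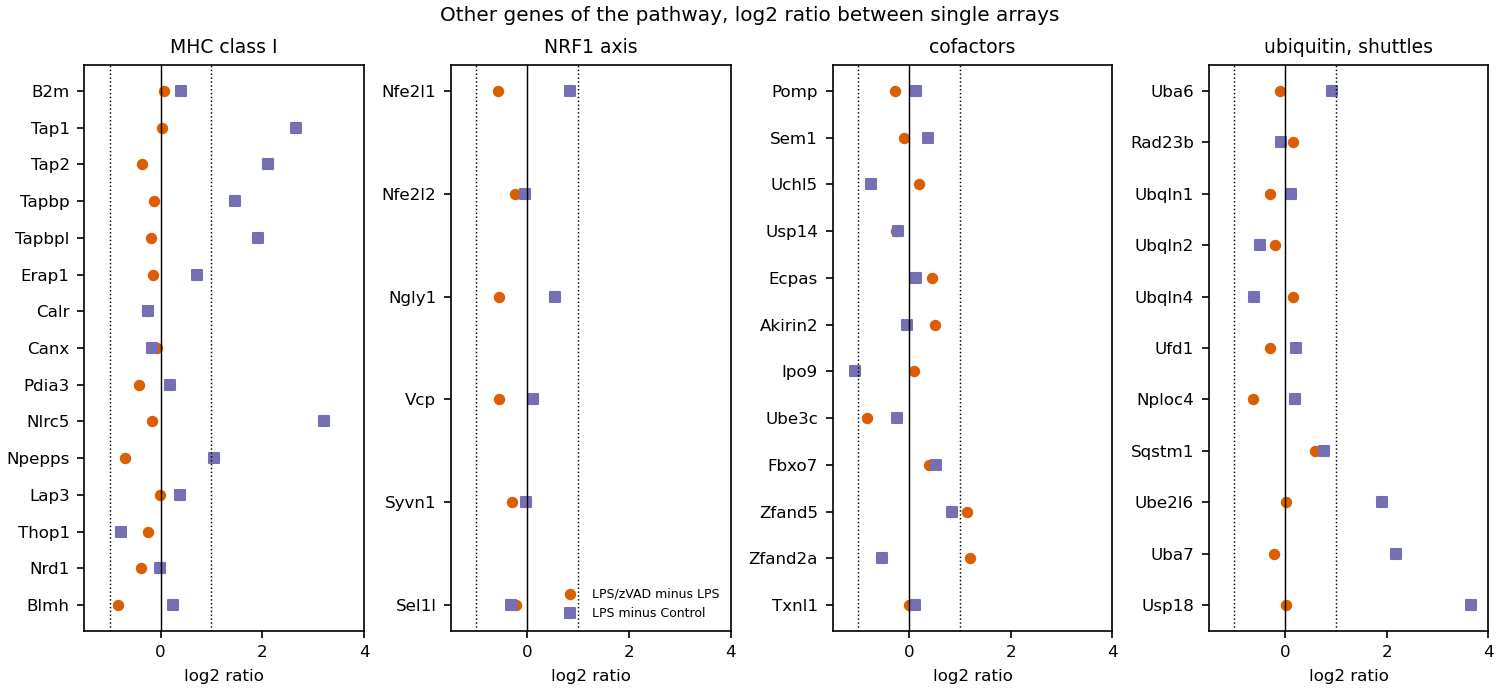
Log2 ratio (horizontal axis) of the measured genes of 4 lists outside the Psm symbols, with orange circles for LPS/zVAD minus LPS, purple squares for LPS minus Control, and dotted lines at 2-fold. The squares of Nlrc5, Tap1, Tap2, Tapbpl and Tapbp lie far right of 0 while their circles lie near it, and the circles of Zfand2a and Zfand5 lie past 2-fold. Each point is a difference of 2 single arrays and has no error bar.

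Agreement between probes gave a partial view of measurement error. The genes with several probes were Psma3, Psma5, Psmb3, Psmc1 and Psmd2, and the probes of 1 gene share transcripts, so they are not independent of each other. Their log2 ratios differed by a median of 0.06 over the 4 comparisons and by 0.30 at most, for Psma5 in LPS against Control. The probe annotated to both Psme2 and Psme2b was left out of these spreads. It lay further from the probe used for Psme2, at 1.47 against 0.87 in LPS against Control. These spreads hold the error of probes on the same arrays and none of the error between cultures.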

How the data were processed

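Total RNA was hybridised to Affymetrix arrays, per the labels' protocols. Gene-level signals were deposited by the authors as log2 values, as their range shows. The submitters' processing notes name Affymetrix Expression Console. The sources used here give no version, background correction, summarisation, normalization or build, so an array-wide trend could shift every ratio. Scanner files were not used here.

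Of 35556 probes, 21789 had 1 symbol in the platform annotation and 1621 several, and probes with several named no gene. All 50 members carried a gene identifier of the RefSeq table (GRCm38.p6) with the same symbol. The members and lists were chosen with earlier results of these data known. Samples were grouped by title, and the 4 comparisons of single arrays had no test, only the 2-fold rule over the 12203 tested genes. All values are given for members at least 1.5-fold apart in a comparison, the catalytic genes and PA28 (for Psme4, 3 signals and its LPS ratio); others by range. From the 5 pathway lists, genes at least 2-fold apart and up to 4 others per list were named, with some beyond these chosen after their values were seen. The 7 marker lists covered macrophages and other cells. Alternatives were 1.5-fold, centred arrays, quantile normalization and cyclic loess (limma 3.58.1, R 4.3.3), the mean over probes, no filter and leaving out Psmc3ip; leaving out Psme3ip1 as well was chosen after seeing the data. Counting and ratios (Python 3.11.15, pandas 2.3.3) were tested on simulated data.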

Additional observations from a re-analysis of the deposited data

How the results depend on the processing

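With 1 array per condition no array could be left out, and an arm without its array has no value. No paired analysis was possible because each condition has 1 array. At 1.5-fold in place of 2-fold, the LPS array held 11 members above Control and 2 below it, 6 were lower with LPS/zVAD than with LPS, and 2 were higher with LPS/zVAD/Nec-1 than with LPS/zVAD. With centred arrays the median log2 ratio of all members was 0.31 for LPS over Control and -0.21 for LPS/zVAD/Nec-1 over LPS. After quantile normalization these medians were 0.087 and -0.064, and 1 member was at least 2-fold lower with LPS/zVAD than with LPS. After cyclic loess 1 member was likewise lower. The median for LPS/zVAD over LPS lay between -0.40 and -0.27 under every alternative run, and that for LPS/zVAD/Nec-1 over LPS/zVAD between 0.17 and 0.24. The scaling moved the balance of all genes called at 2-fold between LPS/zVAD and LPS, of which 47.5% were higher as deposited, 57.8% after quantile normalization and 61.1% after cyclic loess. Of 704 ratios of 22 members under the alternatives, 672 kept their direction and side of the threshold. Many of these could not move, so 672 does not measure stability. The 1.5-fold rule, no filter and leaving out genes keep each ratio as deposited, and the mean over probes touches only Psma5 of the 22. Of the rest, 3 were no longer past the threshold, 14, all under 2-fold, changed sign and 15 were newly past it. Of those 15, 14 passed only because the threshold was lowered to 1.5-fold. The count of members higher with LPS was 5, or 4 after quantile normalization and 6 with the mean over probes. Signals under log2 6.47 were not separated from background, which touches Psma8 and Psmb11. The error between cultures is not known.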

Other observations

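Genes of ubiquitin supply and of the ubiquitin-like modifier ISG15 were read from a list of 11 measured genes. With LPS against Control 3 were at least 2-fold higher (8.24% of all genes tested) and 0 lower (7.2%). They were Usp18, the protease that removes ISG15 (12.7-fold, log2 13.84 with LPS and 10.18 in Control), Uba7, its activating enzyme (4.57-fold), and Ube2l6, its conjugating enzyme (3.74-fold). With zVAD these 3 lay at 0.02, -0.22 and 0.02 against LPS. Sqstm1, the autophagy receptor p62, lay at 0.77 with LPS against Control, at 0.60 with LPS/zVAD against LPS and at -0.46 with LPS/zVAD/Nec-1 against LPS/zVAD. Nploc4, a partner of Vcp, lay at -0.63 with zVAD, and Uba6, an activating enzyme, at 0.93 with LPS against Control.

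Among 12 measured regulators known to induce the immunoproteasome or to carry interferon signals, 5 were at least 2-fold higher with LPS than in Control. Of all genes tested, 8.24% were. The 5 were Irf7 (17.1-fold), Stat2 (7.61-fold), Irf1 (7.15-fold), Rel (2.82-fold) and Ifnb1, whose Control signal of log2 5.42 was under the filter level. Irf1, a factor that activates the inducible subunit genes, stood at log2 11.86 with LPS/zVAD/Nec-1, 12.81 with LPS/zVAD, 11.46 with LPS and 8.63 in Control, and was 2.54-fold higher with LPS/zVAD than with LPS. Ifnb1 had a log2 ratio of 5.14 in that comparison, from an LPS signal of log2 6.48, close to the filter level. The other 10 were under 2-fold, and 3.25% of all genes tested were at least 2-fold higher. Psmb8, Psmb9 and Psmb10 lay at -0.24, -0.54 and -0.34 there. Irf9 and Irf3 lay at 0.78 and -0.77 with LPS/zVAD against LPS and at -0.64 and 0.76 with LPS/zVAD/Nec-1 against LPS/zVAD. Ifnb1 and Irf1 lay at -4.11 and -0.95 with LPS/zVAD/Nec-1 against LPS/zVAD.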
